A study of Mus musculus with 4 samples.

Results

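Collagens are secreted or membrane-bound proteins built from triple helices, and mouse collagen chains carry symbols made of Col, a type number, the letter a and a chain number. All 44 genes of the 32285 in the deposited matrices whose symbol has that form are described here, by cell class and by mitochondrial activity of the sorted cells. Droplet single-cell 3' RNA libraries had been made from C57BL/6J mouse embryos at embryonic day 11.5, taking their aorta-gonad-mesonephros (AGM) tissue, where the first haematopoietic stem cells arise. Every library came from cells sorted as positive for CD31, an endothelial and haematopoietic surface protein, so no CD31-negative control exists. The sorted cells were split by TMRM, a dye that accumulates with mitochondrial membrane potential, into a low (MMPlow) and a high (MMPhigh) fraction, with 2 libraries each. The labels do not say whether the 2 libraries of a fraction came from separate embryos or sorts, so the p-values below measure only the spread between these libraries.

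Fibrillar collagens form the tensile fibres of connective tissue. Basement membrane collagens, chiefly type IV with types XV and XVIII, form or anchor the sheets that lie under endothelium and epithelium. The remaining collagens decorate fibrils, form beaded filaments or span the cell membrane, and several mark cartilage precursors. A level here is the summed UMIs (counted transcript molecules) of a gene over the cells of one class in one library, scaled to the total UMIs of those cells and given as CPM, the usual per-library unit. Since capture differs between genes, levels are compared between classes for one gene and not between genes.

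After filtering, 15698 and 18404 cells remained in the 2 MMPlow libraries and 4248 and 3389 in the 2 MMPhigh libraries, where the labels name 10000 cells per lane as the most aimed for. In the same order the median depth of these cells was 3082, 3638, 3754 and 23542 UMIs, so MMPhigh 2 stood apart in depth over all cells. Within classes MMPhigh 1 was deep as well: mesenchymal-like medians were 3527, 3963, 17411 and 22031 UMIs, while neural-like ones were 3631, 4564, 4039 and 21069. Library totals ran from 51800709 to 120168395 UMIs, and at most 81 retained barcodes were shared by any 2 libraries. Cells were clustered without collagen genes and classes named from marker lists: 15885 endothelial-like, 2807 mesenchymal-like, 352 epithelial-like and 3448 neural-like cells are compared here. Another 6960 cells stayed unnamed, 11.7%, 16.5%, 41.9% and 9.09% of the libraries in the same order, among them clusters with Stab2 and Lyve1 (630 cells) and with Afp and Wt1 (1461 cells) among their leading genes, so the levels below leave those cells out. Only 12 endothelial-like cells fell in each MMPhigh library, and 10 and 14 epithelial-like cells. Mesenchymal-like, epithelial-like and neural-like cells lie outside the types that CD31 marks, and the 13 endothelial markers summed to 18.6 to 723 CPM in those classes against 4644 to 6285 in endothelial-like cells. The classes carry these names from RNA alone.

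The 2 promoters below are shown because their genes lie at opposite ends of the class pattern: Col3a1, the chain of fibrillar type III collagen, was highest in mesenchymal-like cells among the 4 classes compared, and Col15a1, the chain of basement membrane type XV collagen, in endothelial-like cells. Each is the 250 bases before the RefSeq transcript start (GRCm38.p6, the build of the mm10 assembly named in the submitters' processing notes), on the plus strand, chr1:45311288-45311537 for Col3a1 and chr4:47207762-47208011 for Col15a1. Neither window overlaps an annotated exon. Capitals mark TATAA on either strand.
Col3a1: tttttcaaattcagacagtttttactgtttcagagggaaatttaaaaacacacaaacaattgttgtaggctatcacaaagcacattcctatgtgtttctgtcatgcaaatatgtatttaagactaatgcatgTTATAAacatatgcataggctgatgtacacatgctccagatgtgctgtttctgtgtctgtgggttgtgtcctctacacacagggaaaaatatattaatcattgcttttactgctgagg
Col15a1: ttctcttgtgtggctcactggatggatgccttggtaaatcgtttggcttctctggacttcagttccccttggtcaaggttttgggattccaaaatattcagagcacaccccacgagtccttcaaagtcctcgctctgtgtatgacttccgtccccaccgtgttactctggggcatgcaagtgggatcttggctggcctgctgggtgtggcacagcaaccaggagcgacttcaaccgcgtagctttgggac
The Col3a1 window had 35.2% G and C and the Col15a1 window 53.6%. TATAA was found in 7 of the 38 windows of the 35 collagen genes with an entry, and in 22.8% of all 32851 windows. CCAAT was found in 13 of the 38 (33.8% of all windows), GGGCGG in 22 (32.7%) and CCGGAAG in 0 (6.91%), each sought on both strands. The Col15a1 window held none of the 4. Col4a1 and Col4a2, which encode the main type IV chains, lie head to head on chromosome 8, with starts 21 bases apart and first exons that overlap by 22 bases (Col4a1 11198423 to 11312826 on the minus strand, Col4a2 11312805 to 11449287 on the plus strand), so no window free of exons exists between them.

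Among these 4 classes, described fibrillar collagens were highest in mesenchymal-like cells, Col4a1, Col4a2, Col15a1 and Col18a1 in endothelial-like cells, and the other described type IV chains in epithelial-like cells. Neural-like cells were highest for none of the described collagens. Of the 44 genes, 30 had a mean of at least 10 CPM in 1 of these 4 classes; the other 14 peaked at 0.177 to 9.31, and none was without UMIs. Among the 30, the highest mean was in mesenchymal-like cells for 21, in endothelial-like cells for 5 and in epithelial-like cells for 4. Over all genes at that level the highest mean was in mesenchymal-like cells for 22.2%, endothelial-like 24.3%, epithelial-like 29.0% and neural-like 24.5%. For 25 of the 30, all libraries of the highest class lay above all libraries of the next, which held for 27.5% of all genes at that level. These orderings are descriptions, without a test, because the classes were made from the same cells.

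**Figure D1:**
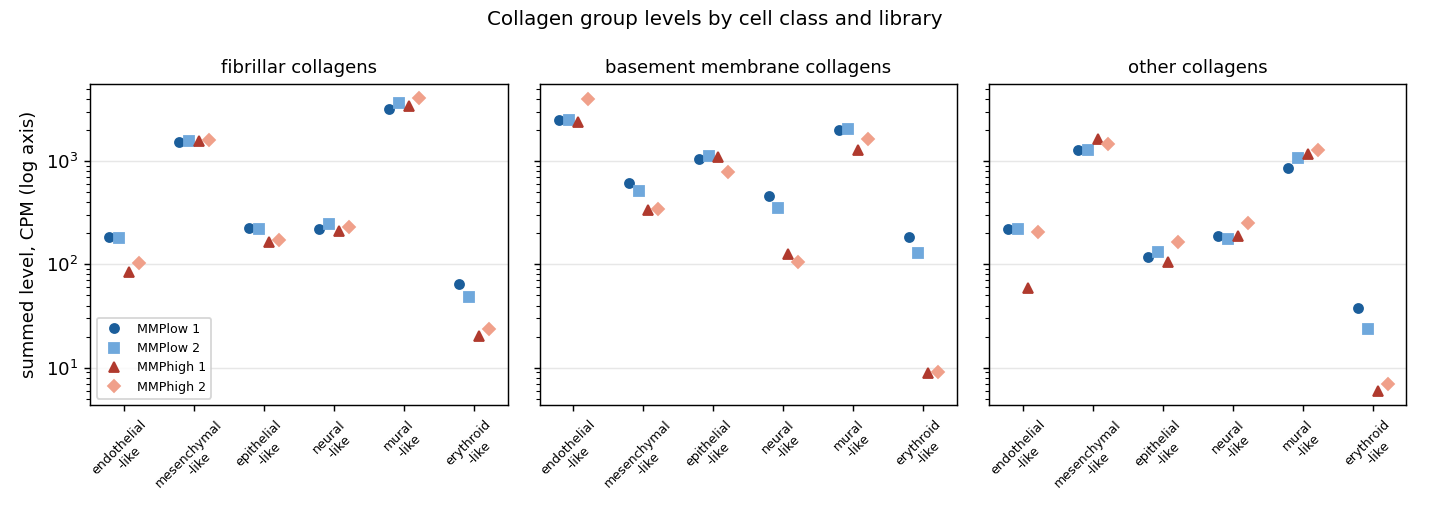
Summed level of fibrillar, basement membrane and other collagens (CPM, log axis) in 6 cell classes, one point per library. Fibrillar collagens in mesenchymal-like cells sit between 1533 and 1584, while basement membrane collagens in neural-like and erythroid-like cells are lower in both MMPhigh libraries than in both MMPlow libraries.

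Basement membrane chains made up 89.8% ± 4.4 (SD, n = 4 libraries) of the collagen UMIs of endothelial-like cells and 75.4% ± 4.2 of those of epithelial-like cells. The endothelial-like share was 86.0% and 86.1% in MMPlow, and 94.4% and 92.8% in MMPhigh on 12 cells each. In mesenchymal-like cells the basement membrane share was 13.1% ± 3.96, and fibrillar chains made up 45.6% ± 1.23. That basement membrane share was 17.7% and 15.1% in MMPlow and 9.62% and 10.0% in MMPhigh, without overlap. Basement membrane chains there summed to 607 and 510 CPM in MMPlow and 338 and 341 in MMPhigh. In erythroid-like cells, taken as background, they summed to 184 and 129 in MMPlow and 8.93 and 9.06 in MMPhigh. The part of background in the difference in shares was not tested. Summed fibrillar levels in mesenchymal-like cells were 1533 and 1571 CPM in MMPlow and 1554 and 1584 in MMPhigh, so the fractions overlapped. Mural-like cells, the pericyte and smooth muscle type that wraps vessels, exceeded them with 3161 and 3621 in MMPlow and 3415 and 4043 in MMPhigh. All mural-like values rest on 220 and 231 cells in MMPlow but only 13 and 14 in MMPhigh.

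Among the 4 classes, all 9 described fibrillar genes had their highest mean in mesenchymal-like cells. Outside them, mural-like cells were higher without overlap for Col1a1, Col1a2, Col3a1, Col5a1 and Col5a2, with Col1a1 at 752, 864, 904 and 1082 CPM and Col3a1 at 1228, 1471, 1054 and 1241. Col3a1 stood at 486, 527, 545 and 541 in mesenchymal-like cells (MMPlow 1, MMPlow 2, MMPhigh 1 and MMPhigh 2, the order kept below). In endothelial-like cells it stood at 18.5, 16.3, 0 and 3.10. The 0 and the 3.10 rest on 0 and 1 UMIs in 12 cells each. Col1a1 and Col1a2, the 2 chains of type I collagen of skin and bone, averaged 116 ± 5.89 and 249 ± 48.9 in mesenchymal-like cells (SD, n = 4). Neither averaged above 37.2 in another of the 4 classes. The Col1a1 share of the UMIs of the 2 chains was 29.0% to 35.4% in mesenchymal-like libraries and 54.7% to 67.3% in mural-like libraries, with no overlap. In mesenchymal-like cells Col2a1, the cartilage fibril chain, averaged 219 ± 47.1, and Col11a1, which nucleates those fibrils, 216 ± 37.4. Above the level in erythroid-like cells of the same library, Col11a1 stood at 237, 250, 180 and 187 in mesenchymal-like cells. In mural-like cells it then stood at 244, 245, 122 and 279, with overlap. Col24a1, a minor fibrillar chain, averaged 30.6 ± 9.47 in mesenchymal-like cells and at most 3.82 in the other 3 of the 4 classes. Among the 9, Col5a2 and Col27a1 overlapped with a second class. Col27a1, also a minor fibrillar chain, stood at 39.5, 32.2, 36.7 and 37.0 in mesenchymal-like cells and at 25.6, 17.8, 46.4 and 31.1 in epithelial-like cells. Col5a2 encodes a chain of type V collagen, which regulates fibril width. Its levels were 118, 127, 69.2 and 86.7 in endothelial-like cells and 104, 98.1, 109 and 136 in mesenchymal-like cells, so the 2 classes overlapped. Its partner Col5a1 averaged 54.5 in mesenchymal-like cells and stayed at 9.48 or below in endothelial-like cells. The Col5a1 share of the pair was 0% to 7.44% in endothelial-like cells against 29.5% to 35.6% in mesenchymal-like cells.

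Shares of cells with a Col3a1 UMI gave the same order of classes. With every cell thinned to 2000 UMIs, 55.1%, 58.3%, 59.7% and 60.2% of mesenchymal-like cells had one (71.1%, 76.6%, 91.2% and 96.2% unthinned). In erythroid-like cells, red cell precursors that should lack it, the thinned shares were 3.18%, 2.39%, 0% and 0.88% at median depths of 3113 to 55513 UMIs. Those of endothelial-like cells, at 3.83% and 3.66% in MMPlow, were close to that background.

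**Figure D2:**
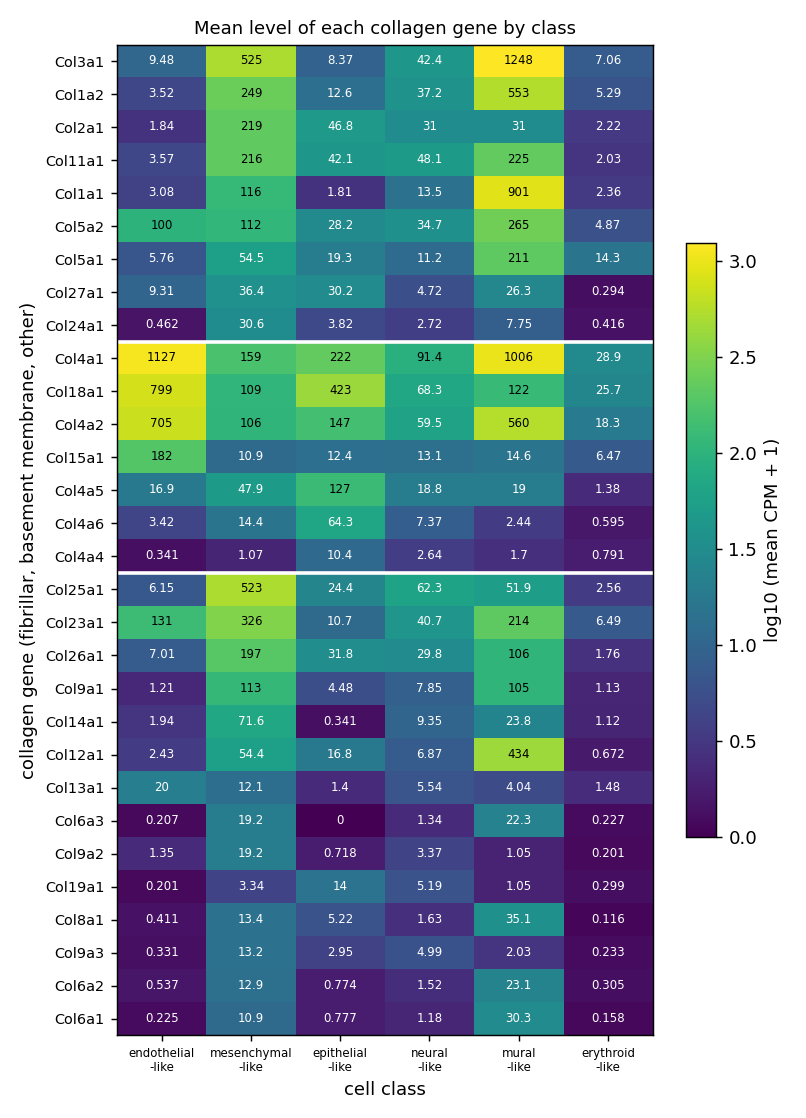
Mean level over 4 libraries (CPM, printed in each cell, colour on a log10 scale) of the 30 described collagen genes in 6 classes. Fibrillar genes peak in the mesenchymal-like or mural-like column. By these means Col4a1, Col4a2, Col18a1 and Col15a1 peak in the endothelial-like column. In both MMPlow libraries, however, Col4a1 and Col4a2 were higher in mural-like cells.

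Of the 7 described basement membrane genes, 4 were highest in endothelial-like and 3 in epithelial-like cells. Col4a1 stood at 1014, 1024, 1043 and 1427 CPM in endothelial-like cells, and its mean in mural-like cells was 1006 ± 136 (SD, n = 4). In both MMPlow libraries mural-like cells were higher. The values that follow are taken above the erythroid-like level of the same library, which cannot change the order of classes within it. Col4a1 then stood at 1009 and 1095 in mural-like against 947 and 976 in endothelial-like cells. For Col4a2 the values were 630 and 626 against 619 and 621. In both MMPhigh libraries endothelial-like cells were higher for both genes. The 13 endothelial markers summed to 904, 865, 93.7 and 27.5 CPM in mural-like cells. In erythroid-like cells they summed to 585, 452, 151 and 143. The part of endothelial RNA in the mural-like levels was not tested. Col4a1 made up 58.6% to 67.6% of the UMIs of the Col4a1 and Col4a2 pair in endothelial-like libraries and 58.5% to 60.4% in mesenchymal-like libraries, with overlap. Col18a1, whose C-terminal fragment is endostatin, averaged 799 ± 345 in endothelial-like cells and 423 ± 52.6 in epithelial-like cells. Col15a1 was the most restricted of the 4: its endothelial-like levels were 187, 193, 138 and 211, and no other of the 4 classes exceeded 31.4 in any library. Col4a5 and Col4a6, chains of a separate type IV network, reached 127 ± 36.0 and 64.3 ± 12.8 in epithelial-like cells, against 16.9 and 3.42 in endothelial-like cells. Their genes also lie head to head, on chromosome X with starts 1309 bases apart. Col4a4, a chain of the mature kidney filter, reached 10.4 ± 2.89 in epithelial-like cells on 2 to 9 UMIs per library.

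Endothelial-like cells were not uniform in these genes. MMPlow values are given, because each endothelial-like cluster held at most 6 cells of an MMPhigh library. The cluster led by Gja5 and Vegfc, genes of arterial endothelium, had Col4a1 at 1398 and 1510 CPM, Col18a1 at 1133 and 1097, and Col5a2 at 302 and 322. The cluster led by Ptprm and Piezo2 had Col15a1 at 390 and 404, against 72.4 and 66.7 in the cluster led by Apcdd1 and Palmd. The cluster led by Tll1, Flrt2 and Emcn had Col23a1, a membrane collagen, at 386 and 394 against 59.4 and 56.5 in the Apcdd1 cluster. In the same pair of clusters Col13a1, another membrane collagen, stood at 62.3 and 55.5 against 1.96 and 1.82.

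Among the 25 other collagens, 14 were described and 12 of them were highest in mesenchymal-like cells among the 4 classes. For Col6a1, Col6a2, Col6a3, Col8a1 and Col12a1 the mean of mural-like cells was higher still, and Col12a1, a fibril-associated chain, stood at 396, 517, 468 and 353 CPM there against 63.3, 64.5, 47.6 and 42.1 in mesenchymal-like cells. Col25a1, a membrane collagen needed for motor innervation of muscle, stood at 494, 494, 654 and 452 CPM in mesenchymal-like cells. No library of the other 3 classes exceeded 77.3. Col25a1 was also found in muscle progenitor-like cells at 172. Whether reads from introns were counted is not given in the sources used here, and Col25a1 spans 468.4 kb. Col9a1, Col9a2 and Col9a3, which coat cartilage fibrils, averaged 113, 19.2 and 13.2 in mesenchymal-like cells and at most 7.85 in the other 3 classes. Above the erythroid-like level of the same library, Col9a1 stood at 67.7, 109, 131 and 107 in mural-like cells. In mesenchymal-like cells it then stood at 130, 142, 87.0 and 90.1, with overlap. The type VI chains Col6a1, Col6a2 and Col6a3, which form beaded filaments, averaged 10.9, 12.9 and 19.2 in mesenchymal-like cells. Col6a3 had 0 UMIs in epithelial-like cells of every library, which allows levels of up to 4.1 to 9.32 CPM, taking 3 counts as the limit for counting error. Col8a1, a network-forming chain of vessel walls and the cornea, averaged 13.4 ± 6.78 in mesenchymal-like cells, which overlapped with epithelial-like cells, and 35.1 ± 23.1 in mural-like cells. Within the 4 classes the mean of Col19a1 was highest in epithelial-like cells at 14 ± 8.75, with overlap with neural-like cells. In both MMPhigh libraries neural-like cells were higher than epithelial-like ones. Muscle progenitor-like cells reached 151.

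The mesenchymal-like cells split into 5 sub-clusters with different collagens. Each is called by genes among its 10 leading ones. Pax9 and Sox9, genes of the sclerotome and cartilage lineage, were among those of 2 sub-clusters. The larger, called the Pax9 sub-cluster here, had Col2a1 at 429, 416, 379 and 368 CPM, and Col9a1 at 229, 234, 180 and 210. The smaller, which also had Meox1, had Col2a1 at 397, 323, 318 and 448 and Col9a1 at 191, 203, 183 and 96.8, with 12 and 4 MMPhigh cells. The sub-cluster led by Prrx1 and Tbx15, genes of limb and body wall mesenchyme, had Col2a1 at 74.7, 57.0, 29.2 and 59.5. A further sub-cluster led by Tmem132c, Prrx1 and Epha3 had the highest Col23a1, at 785, 618, 609 and 672. Prrx1, Ptn, Tbx15, Tmem132c and Tbx3os1 were among the leading genes of both this sub-cluster and the Prrx1 and Tbx15 one. Libraries were clustered without a step to align them. Whether these sub-clusters part like cells by fraction or by depth was not tested. The Epha3 sub-cluster held 0.872% and 0.924% of the mesenchymal-like cells of the MMPlow libraries and 35.9% and 45.7% of those of the MMPhigh libraries. The Prrx1 and Tbx15 sub-cluster held 38.5% and 39.3% against 20.99% and 11.8%, and the Pax9 sub-cluster 44.9% and 47.2% against 36.5% and 40.8%. For the Meox1 sub-cluster it was 10.1% and 9.41% against 6.63% and 1.38%. The sub-cluster shares thus differed between fractions, and whether the cell types did was not tested.

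**Figure D3:**
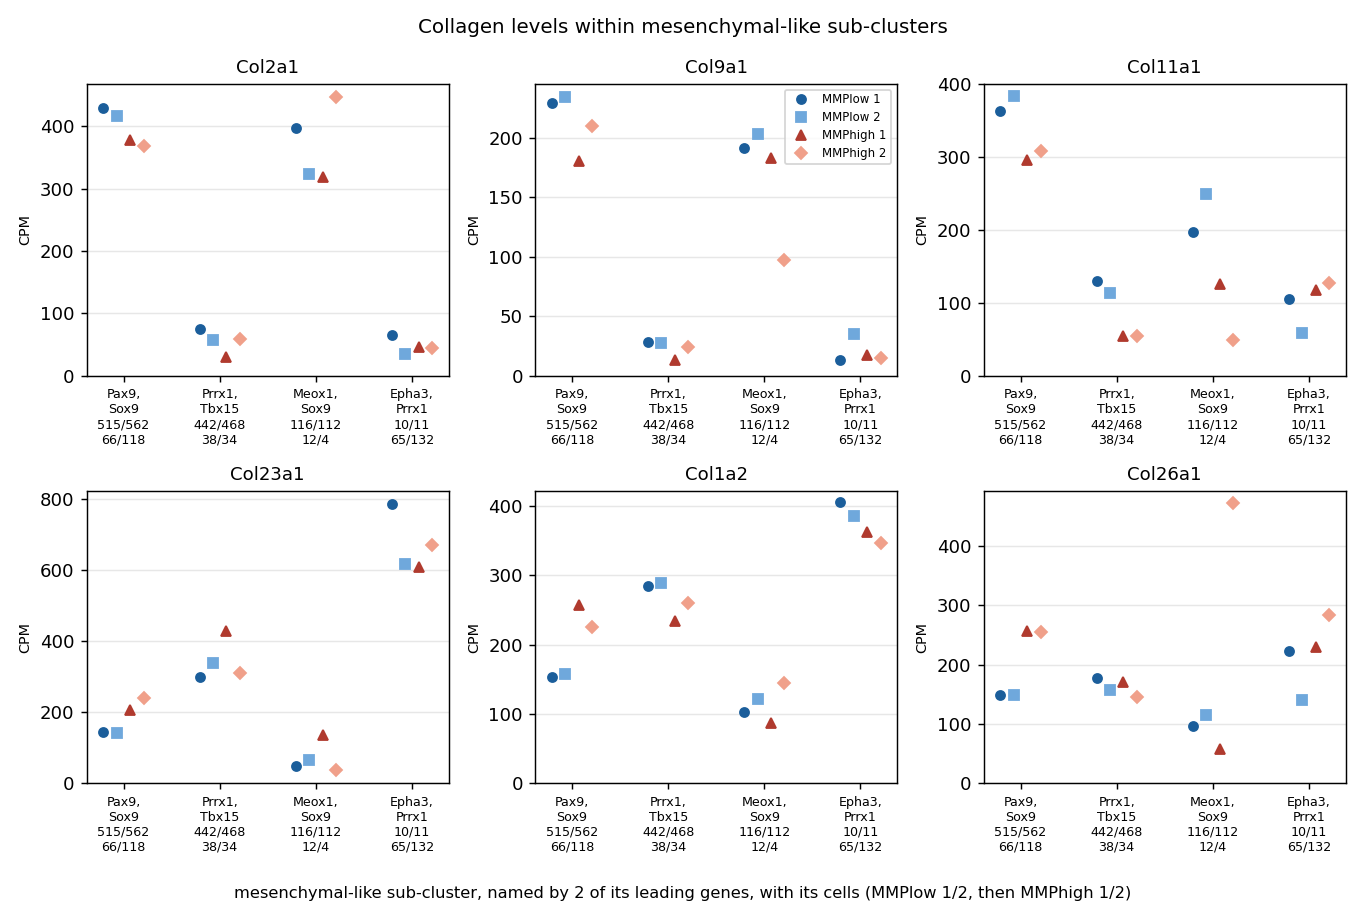
Level (CPM) of 6 collagens in 4 mesenchymal-like sub-clusters, one point per library, with the number of cells under each name. Col2a1 and Col9a1 are higher in the Pax9 and Meox1 sub-clusters than in the other 2 in every library, and Col23a1 and Col1a2 are highest in the Epha3 sub-cluster, where the MMPlow points rest on 10 and 11 cells.

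Epithelial-like cells fell into a cluster led by Trp63 and Sfn, genes of stratified epithelium, and one led by Pkhd1 and Calb1, genes of kidney duct epithelium. In MMPlow the first had Col18a1 at 505 and 497 CPM and Col19a1 at 32.7 and 18.6. The second had Col18a1 at 189 and 222 and Col27a1 at 74.5 and 46.6, against Col27a1 at 8.18 and 7.42 in the first. The MMPhigh libraries held 3 and 4 cells of the first and 7 and 10 of the second, where the MMPlow libraries held 133 of the first in each and 29 and 33 of the second. Neural-like cells fell into a cluster led by Fabp7 and Sox10, genes of glial and neural crest precursors, and one led by neuronal genes such as Dcx. The Sox10 cluster held 48.7% and 49.2% of the neural-like cells of the MMPlow libraries but 8.09% and 14.8% of those of the MMPhigh libraries. Col25a1 stood at 82.9, 89.2, 155 and 192 in the Sox10 cluster and at 37.9, 51.0, 33.2 and 62.7 in the neuronal one.

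The second comparison asked which collagens differed between MMPhigh and MMPlow cells of one class, with edgeR's quasi-likelihood test on summed counts of all genes and Benjamini-Hochberg adjustment. In mesenchymal-like cells 17 of the 35 collagens that passed the low-count filter had an adjusted p under 0.05, where 16.5% of all 13698 genes tested did. They were 6 higher and 11 lower in MMPhigh, where 5.89% and 10.6% of all genes were. The median log2 fold was 0.02 over the 35 collagens and 0.00045 over all genes. In all retained cells together 19 of 43 passed (53.8% of all genes), 9 higher and 10 lower (27.3% and 26.5% of all genes), a comparison in which the class make-up of the fractions differs: endothelial-like cells were 47.4% and 45.7% of MMPlow and 0.282% and 0.354% of MMPhigh cells. Fewer cells of a type and less RNA per cell cannot be told apart in that sum. The 9 higher genes were Col1a2, Col6a3, Col6a6, Col19a1, Col20a1, Col22a1, Col24a1, Col25a1 and Col26a1, with log2 folds of 0.42 to 1.61. The 10 lower ones were Col4a1, Col4a2, Col5a2, Col5a3, Col10a1, Col12a1, Col13a1, Col15a1, Col18a1 and Col23a1, with log2 folds of -4.87 to -0.72. Several were low in all 4 compared classes: the fibril-associated Col20a1 and Col22a1 peaked in neural-like cells at 4.48 and 9.31 CPM, and Col10a1, a chain of growth cartilage, had 126 UMIs over all retained cells. Col5a3, another type V chain, averaged 0.775 or less in those classes and 91.1 ± 7.68 in mural-like cells (SD, n = 4). Of the 19 calls 12 held under every alternative that was run. Leaving out MMPlow 1 or MMPlow 2 left 13 of 43 collagens, 4 higher and 9 lower in both cases, and 7829 of 21326 or 8044 of 20693 genes in all. Col1a2, Col6a3, Col6a6, Col19a1 and Col24a1 lost their call in both cases, Col10a1 without MMPlow 1 and Col12a1 without MMPlow 2, and Col6a3 also without MMPhigh 1. DESeq2 did not call Col6a3 and Col6a6, and among cells with at least 5000 UMIs Col1a2, Col6a3 and Col10a1 did not pass.

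Beside 4 basement membrane genes, Col2a1, Col9a1, Col9a2, Col9a3, Col11a1, Col12a1 and Col14a1 were lower in MMPhigh mesenchymal-like cells. Col2a1 levels were 267, 251, 185 and 173 CPM, without overlap between the fractions, an MMPhigh minus MMPlow difference by edgeR of -0.49 ± 0.11 (log2, SE) with an adjusted p of 0.0043. The other 6, which build or coat fibrils, fell by 0.39 to 1.06 on the log2 scale. Within the Pax9 sub-cluster alone the Col2a1 log2 fold was -0.15 (SE 0.12, edgeR adjusted p = 0.51) and that of Col9a1 was -0.21 (adjusted p = 0.34). Nor did Col9a2 (-0.53), Col11a1 (-0.28) and Col14a1 (-0.49) pass there, with edgeR adjusted p-values of 0.11, 0.17 and 0.13. In the Prrx1 and Tbx15 sub-cluster, where 5 of 24 collagens and 10.7% of all genes passed, Col11a1 passed with -1.06 (adjusted p = 0.0034), while Col2a1 (-0.39), Col9a1 (-0.40), Col12a1 (-0.49) and Col14a1 (-0.33) had the same sign as in the class and did not pass, on 38 and 34 MMPhigh cells. In the Pax9 sub-cluster 8 of 31 tested collagens passed, where 8.83% of all genes did. Col9a3 and Col12a1 were among them, with log2 folds of -0.81 and -0.50 (edgeR adjusted p = 0.038 and 0.039). Col23a1 rose, with levels of 212, 223, 406 and 462 in the whole class, an MMPhigh minus MMPlow difference by edgeR of 1.04 ± 0.11 (log2, SE) with an adjusted p of 1.34e-05. Within the Pax9 sub-cluster its log2 fold was 0.67 (SE 0.12, edgeR adjusted p = 0.00068), and in the Prrx1 and Tbx15 sub-cluster 0.30 (adjusted p = 0.28). Col1a2 levels were 201, 212, 292 and 290, an MMPhigh minus MMPlow difference by edgeR of 0.54 ± 0.10 (log2, SE) with an adjusted p of 0.0022. Its log2 fold was 0.65 in the Pax9 sub-cluster and -0.11 in the Prrx1 and Tbx15 sub-cluster (edgeR adjusted p = 0.00092 and 0.70). Col6a3, Col6a6, Col26a1 and Col4a6 were also higher, by 0.64 to 1.01 on the log2 scale, but Col4a6 took the opposite sign with doublets kept (-0.23). In the Pax9 sub-cluster the log2 folds were 0.09 for Col6a3, 0.81 for Col26a1 and 1.41 for Col4a6 (edgeR adjusted p = 0.92, 5.14e-05 and 0.0034). In the Prrx1 and Tbx15 sub-cluster they were -0.37, 0.0044 and -0.61, and none passed (adjusted p = 0.67, 0.99 and 0.58), while Col6a6 was too low to test in either. Over the whole class the calls of Col4a1, Col4a2, Col9a1, Col9a2, Col15a1, Col18a1, Col23a1 and Col26a1 held under every alternative that could be fitted, the sub-clusters aside. Leaving out MMPlow 1 ended those of Col1a2, Col2a1, Col4a6, Col6a3, Col6a6, Col11a1, Col12a1 and Col14a1, MMPlow 2 those of Col6a3, Col6a6, Col11a1, Col12a1 and Col14a1, and MMPhigh 2 those of Col4a6, Col6a3, Col6a6, Col12a1 and Col14a1. DESeq2 did not call Col4a6, Col6a3, Col6a6, Col9a3, Col11a1 and Col12a1, and at resolution 0.5 Col4a6, Col6a6, Col9a3 and Col11a1 did not pass. With doublets kept Col4a6, Col6a6 and Col12a1 did not pass. Col4a6 was also lost with the filter of 10 CPM in 2 libraries and with collagens among the clustering genes. Among cells with at least 5000 UMIs Col2a1, Col4a6, Col6a3, Col6a6, Col11a1, Col12a1 and Col14a1 did not pass. Col1a1 and Col3a1 did not pass, with log2 folds of 0.16 (SE 0.10) and 0.14 (SE 0.11).

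**Figure D4:**
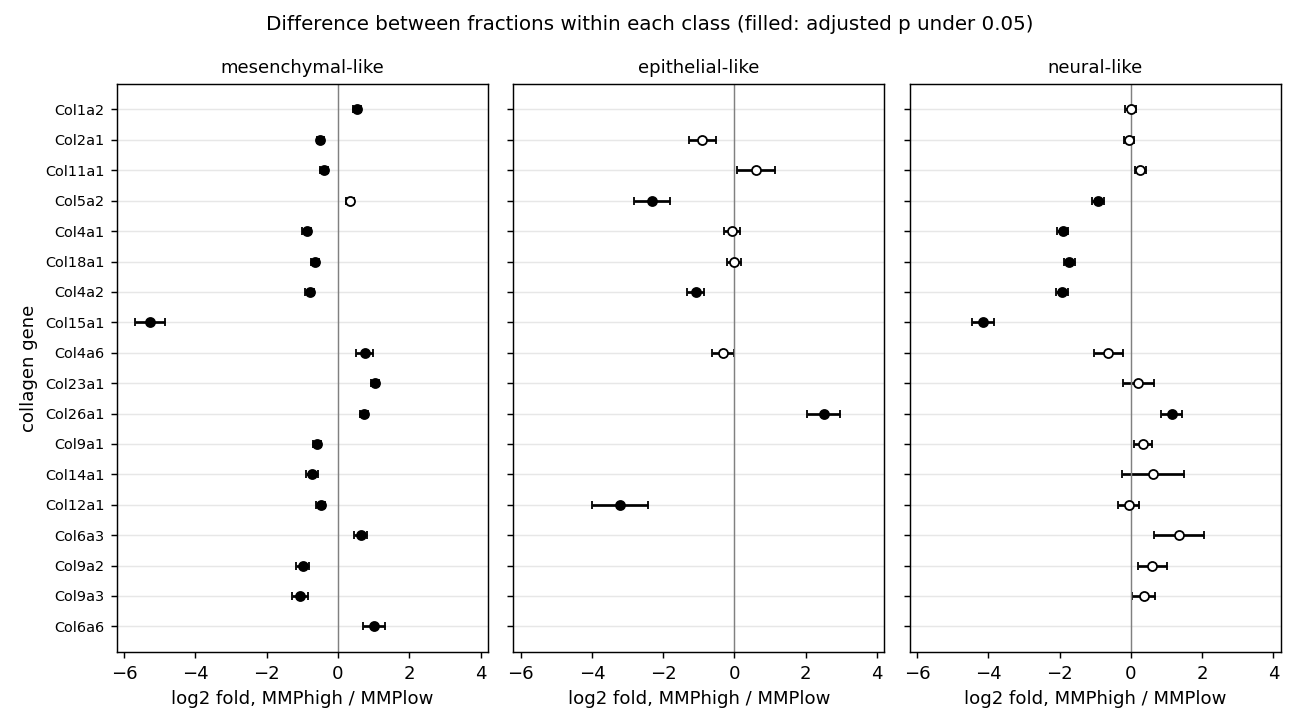
Log2 fold of MMPhigh over MMPlow (points, bars are 1 SE) for the collagens with an adjusted p under 0.05 in at least 1 of 3 classes, filled where it is under 0.05. Col15a1 is the lowest point in mesenchymal-like and neural-like cells, and Col26a1 lies above 0 in the 3 classes.

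Neural-like cells had 6 of 32 tested collagens past the threshold, 1 higher and 5 lower, where 16.4% of all 14892 genes passed (7.93% higher and 8.49% lower). Col26a1, a secreted collagen of unclear role, was higher, with levels of 25.2, 13.6, 34.0 and 46.3 CPM, an MMPhigh minus MMPlow difference by edgeR of 1.15 ± 0.29 (log2, SE) with an adjusted p of 0.045. Its log2 fold was 0.38 in the Sox10 cluster and 1.33 in the neuronal one (edgeR adjusted p = 0.59 and 0.037), and its call over the class was lost without MMPlow 2, with the filter of 10 CPM in 2 libraries and among cells with at least 5000 UMIs. The lower ones were Col5a2 and the 4 genes that were highest in endothelial-like cells among basement membrane collagens. The Col5a2 log2 fold of -0.93 over the class became -0.07 in the Sox10 cluster and -0.51 in the neuronal one (edgeR adjusted p = 0.90 and 0.23), and its call was also lost without MMPlow 1, without MMPlow 2 and among cells with at least 5000 UMIs. Col4a1 levels were 165, 126, 40.1 and 34.4, an MMPhigh minus MMPlow difference by edgeR of -1.91 ± 0.15 (log2, SE) with an adjusted p of 0.00015. Col15a1 levels were 30.5, 19.1, 1.32 and 1.34, an MMPhigh minus MMPlow difference by edgeR of -4.14 ± 0.31 (log2, SE) with an adjusted p of 9.31e-05. In both neural-like clusters taken alone Col4a1, Col4a2, Col15a1 and Col18a1 passed in the same direction, among 6 of 22 collagens in the Sox10 cluster (6.39% of all genes) and 5 of 31 in the neuronal one (2.74%). The others were Col26a1 in the neuronal cluster and, in the Sox10 cluster, Col25a1, higher by 1.04 (log2, edgeR adjusted p = 0.0020), and Col1a1, lower with a log2 fold of -2.08 (adjusted p = 0.035) on 11, 14, 2 and 12 UMIs.

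The same 4 basement membrane genes were lower in MMPhigh mesenchymal-like cells, and endothelial RNA moved with them. Col4a1 levels there were 236, 180, 108 and 110 CPM (log2 fold -0.88, SE 0.13, edgeR adjusted p = 0.00022), and Col15a1 levels 22.9, 19.8, 0 and 0.752. In the Pax9 sub-cluster Col4a1 and Col15a1 passed, Col4a1 with a log2 fold of -0.45 (edgeR adjusted p = 0.023). Col4a2 and Col18a1 did not pass there, with -0.38 and -0.31 (adjusted p = 0.093 and 0.17). In the Prrx1 and Tbx15 sub-cluster all 4 passed, with Col4a2 at -1.30 and Col18a1 at -0.96 (adjusted p = 0.029 and 0.011). In erythroid-like cells, which should make neither, Col4a1 stood at 66.9, 47.8, 0 and 0.712 and Col15a1 at 14, 11.7, 0 and 0.204. The 13 endothelial markers, all detected, summed to 723, 541, 25.1 and 35.7 in mesenchymal-like cells, 685, 584, 52.9 and 18.6 in neural-like cells and 585, 452, 151 and 143 in erythroid-like cells. With the erythroid-like level of the same library taken away, an alternative chosen after seeing the data, Col4a1 stood at 169, 132, 108 and 109 in mesenchymal-like cells and at 98.1, 78.5, 40.1 and 33.7 in neural-like cells. In mesenchymal-like cells Col4a2 then stood at 110, 91.4, 75.9 and 74.3, Col18a1 at 90.5, 89.3, 77.5 and 76.4, and Col15a1 at 8.96, 8.13, 0 and 0.549. In neural-like cells Col4a2 stood at 67.1, 52.1, 22.7 and 22.8, and Col18a1 at 69.2, 52.8, 25.4 and 22.9. The endothelial markers were higher in both classes than in erythroid-like cells in MMPlow and lower in MMPhigh. The subtracted level therefore does not match the endothelial RNA of these classes. The part of free or carried-over endothelial RNA in these differences was not tested further.

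**Figure D5:**
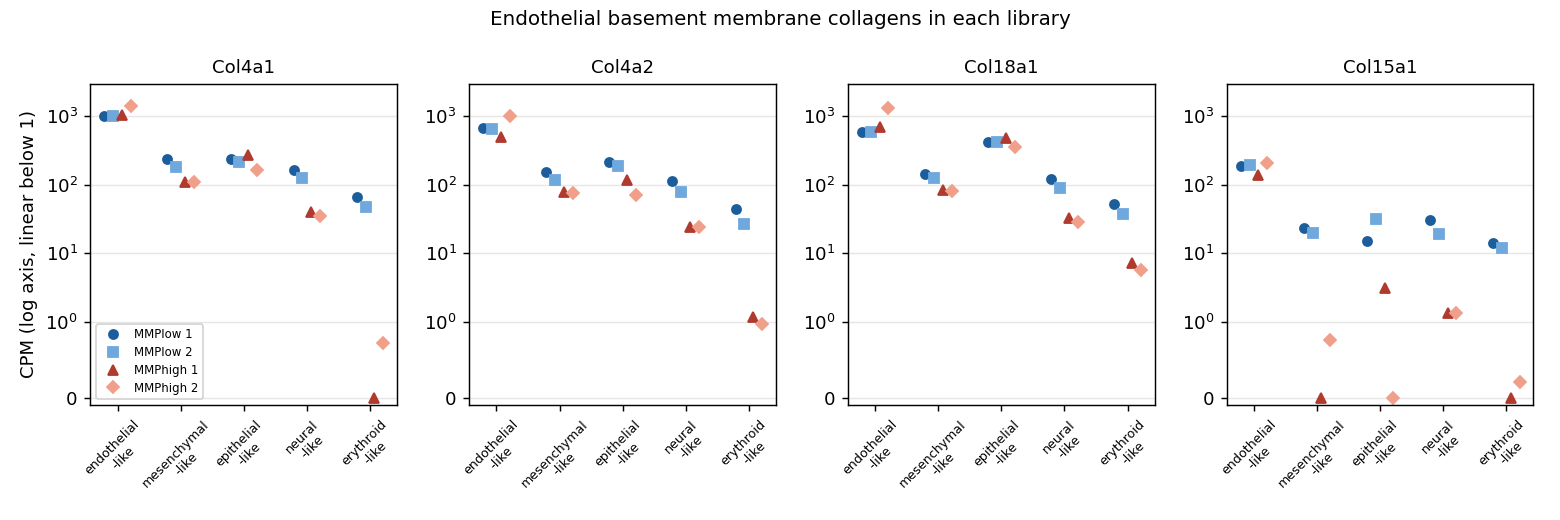
Levels (CPM, log axis that is linear below 1) of Col4a1, Col4a2, Col18a1 and Col15a1 in 5 classes, one point per library. Erythroid-like cells, shown as background, have Col4a1 at 66.9 and 47.8 in MMPlow and at 0 and 0.712 in MMPhigh.

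Epithelial-like cells had 4 of 13 tested collagens past the threshold, 1 higher and 3 lower, where 13.9% of all 8181 genes passed (7.33% higher and 6.58% lower), with only 10 and 14 MMPhigh cells. Col26a1 levels were 9.05, 9.56, 68.1 and 40.4 CPM, an MMPhigh minus MMPlow difference by edgeR of 2.51 ± 0.47 (log2, SE) with an adjusted p of 0.0014. In the Pkhd1 cluster alone its levels were 17.2, 20.7, 72.9 and 48.5. Col4a2 levels were 211, 188, 118 and 71.5, an MMPhigh minus MMPlow difference by edgeR of -1.08 ± 0.24 (log2, SE) with an adjusted p of 0.0057, while that of Col4a1 was -0.07 (SE 0.22). In the Pkhd1 cluster the Col4a2 levels were 138, 72.4, 96.0 and 70.8, so the fractions overlapped. The 13 endothelial markers summed to 624, 628, 40.2 and 28.0 in epithelial-like cells, and their part in the Col4a2 difference was not tested. No fit was made within an epithelial-like cluster, since none held 20 cells in every library. Col5a2 and Col12a1 were also lower, both resting on 6 or fewer MMPhigh UMIs in all. Leaving out MMPlow 1 ended the calls of Col4a2 and Col12a1, MMPlow 2 that of Col5a2 and MMPhigh 1 that of Col12a1. DESeq2 passed none of these 3 lower genes, and Col4a2 did not pass with collagens among the clustering genes. Endothelial-like cells had 0 of 24 collagens past the threshold by edgeR and 0 by DESeq2, where edgeR passed 1.72% of all 14974 genes. An unadjusted p under 0.05 was found for 6 of the 24 and for 1995 of all genes, by edgeR.

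The fraction difference itself was compared between pairs of classes in one edgeR model over the 3 classes other than endothelial-like. It differed for 6 of 38 collagens between mesenchymal-like and epithelial-like cells (7.47% of all 14551 genes), for 10 between mesenchymal-like and neural-like cells (4.74%) and for 5 between epithelial-like and neural-like cells (6.11%). Col5a2 differed in both comparisons with mesenchymal-like cells: its log2 fold was 0.34 in mesenchymal-like, -2.32 in epithelial-like and -0.93 in neural-like cells. These are values over whole classes, and within the 2 neural-like clusters Col5a2 did not pass. Nor did Col5a2 pass in the Pax9 sub-cluster (-0.0083) or in the Prrx1 and Tbx15 sub-cluster (-0.063), with edgeR adjusted p-values of 0.99 and 0.86. Its level in erythroid-like cells was 9.38, 9.25, 0 and 0.865 CPM.

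Genes that make, fold and bind collagen were read from 5 lists. Among genes of at least 10 CPM in 1 of the 4 classes, 22.2% were highest by mean in mesenchymal-like and 24.3% in endothelial-like cells. Of all genes tested, 5.89% were higher and 10.6% lower in MMPhigh mesenchymal-like cells. These shares were 7.93% and 8.49% in neural-like and 7.33% and 6.58% in epithelial-like cells. Of 14 hydroxylases and glycosyltransferases, which modify collagen chains before folding, 7 had their highest mean in mesenchymal-like and 6 in endothelial-like cells. P4hb and P4ha1, subunits of the prolyl hydroxylase, averaged 195 and 83.2 CPM in mesenchymal-like cells and 200 and 68.8 in endothelial-like cells. In mesenchymal-like cells 0 of the 14 were higher and 2 lower in MMPhigh. Of 11 chaperone and export genes 1 was higher and 0 lower there, and Hspa5 and Pdia3, general folding factors, averaged 738 and 515. Of 12 tested processing and cross-linking genes 1 was higher and 0 lower, and Pxdn, which cross-links type IV collagen, averaged 134 in endothelial-like and 94.5 in mesenchymal-like cells. Its list partner Tll1, a propeptide protease, averaged 111 and 44.1. Of 8 tested receptors 2 were higher and 3 lower, and the integrin chains Itgb1 and Itga1 averaged 681 and 158 in endothelial-like cells. Of 11 basement membrane partners 0 were higher and 3 lower. The endothelial markers summed to 723, 541, 25.1 and 35.7 CPM in mesenchymal-like cells, and their part in these counts was not tested. The laminin chains Lamc1 and Lamb1 averaged 218 and 174 in endothelial-like cells and 215 and 262 in epithelial-like cells. In neural-like cells, taking the lists in the same order, 0 of 14, 0 of 10, 0 of 11, 1 of 8 and 0 of 11 were higher and 2, 4, 1, 3 and 6 lower, where the endothelial markers summed to 685, 584, 52.9 and 18.6 CPM and their part was not tested. In epithelial-like cells 3 of 10 basement membrane partners were higher and 2 lower, and 1 of 3 receptors was lower. In the other lists 0 of 8, 0 of 6 and 0 of 3 passed. The endothelial markers summed to 624, 628, 40.2 and 28.0 CPM in epithelial-like cells, and their part was not tested.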

How the data were processed

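Raw UMI counts per gene and cell were used as deposited. They are whole-number counts made with Cell Ranger 7.0.1 per the file headers, while the submitters' processing notes name 2.1.1 and mm10. Barcodes with at least 2000 UMIs, 1000 genes and at most 25% mitochondrial UMIs were kept. Scrublet's own threshold called 1, 887, 0 and 0 doublets and had not worked, so the highest-scoring 6%, 6%, 3.52% and 2.79% were removed (scanpy 1.11.5). Cells were clustered on 2000 variable genes without collagen, ribosomal and respiratory chain genes (30 components, 15 neighbours, Leiden resolution 1, ambiguous clusters and the mesenchymal-like one split at 0.3) and named from 15 marker lists. Counts were summed per class and library and tested with edgeR 4.0.16 (R 4.3.3) at a threshold of 0.05, after a check on simulated data. The minimum was 20 cells per library, 10 for endothelial-like cells and, lowered after the cell numbers were seen, 10 for epithelial-like cells. DESeq2 1.42.0 was an alternative. For a single value, 2 libraries against 2 cannot give an exact permutation p below 0.333. The text describes every collagen with a mean of at least 10 CPM in 1 of 4 classes, every called collagen, and the 2 most abundant genes of each pathway list. The members and lists were chosen with earlier results of these data known. Gene positions are from GENCODE M21 and promoters from RefSeq.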

Additional observations from a re-analysis of the deposited data

Results flagged for a closer look

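The MMPhigh against MMPlow difference itself differed between 2 classes for the collagens below, by a test of that difference (edgeR, adjusted p under 0.05); each value is the log2 fold of the second class minus that of the first. From mesenchymal-like to epithelial-like cells it was -3.47 for Col3a1, -2.73 for Col5a2, -2.91 for Col12a1, 1.74 for Col26a1, 0.72 for Col4a1 and 0.55 for Col18a1. The epithelial-like values rest on 10 and 14 MMPhigh cells, and Col3a1 had 0 and 1 UMIs in them. Above the erythroid-like level of the same library, Col3a1 stood at 2.34, 3.04, -0.58 and 0.46 CPM in epithelial-like cells, close to that background. Col5a2 then stood at 34.3, 41.3, 12.4 and 5.35 and Col12a1 at 22.9, 35.4, 0 and 6.21. Only the Col5a2 difference, 1 of 6, held under all 9 alternatives that were run for differences between classes. These alternatives do not include the replicate number as a block or a cluster taken alone. Leaving out MMPlow 1 ended those of Col3a1, Col4a1, Col18a1 and Col26a1, MMPlow 2 those of Col4a1, Col12a1, Col18a1 and Col26a1, and MMPhigh 1 all but that of Col5a2.

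From mesenchymal-like to neural-like cells it was -1.20 for Col5a2, -1.07 for Col4a2, -1.02 for Col18a1, -0.98 for Col4a1 and -0.81 for Col4a5. For 4 chains that were lower in MMPhigh mesenchymal-like cells it was 1.02 for Col9a1, 1.5 for Col9a3, 1.68 for Col9a2 and 0.72 for Col11a1. The Col9a2 and Col9a3 differences were lost under 7 of 9 alternatives, that of Col11a1 under 6 and that of Col9a1 under 5, in each case without MMPlow 1 and without MMPlow 2. For Col19a1 it was 3.95, with neural-like levels of 0.413, 2.04, 4.53 and 13.8 CPM. The Col19a1 difference was lost without MMPlow 1, without MMPhigh 2 and with DESeq2. The differences of Col4a2, Col5a2 and Col18a1, 3 of 10, held under all 9. None of the 9 takes a cluster alone. In the clusters fitted alone, the Col5a2 log2 folds were -0.0083 and -0.063 in mesenchymal-like and -0.073 and -0.51 in neural-like cells, and none passed. Those of Col4a2 were -0.38 and -1.30 in mesenchymal-like and -1.18 and -1.81 in neural-like clusters. For Col18a1 they were -0.31 and -0.96 against -0.86 and -1.53. For both genes the clusters of the 2 classes overlapped. The endothelial markers summed to 723, 541, 25.1 and 35.7 CPM in mesenchymal-like cells. In neural-like cells they summed to 685, 584, 52.9 and 18.6, and their part in these differences was not tested. Col4a1 lost its difference with collagens among the clustering genes. Col4a5 lost its difference under 6 of 9 alternatives: without MMPlow 1, MMPlow 2 or MMPhigh 2, with DESeq2, with collagens among the clustering genes and with doublets kept.

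From epithelial-like to neural-like cells it was -1.70 for Col4a1, -1.57 for Col18a1, 3.38 for Col12a1, 3.60 for Col3a1 and 4.33 for Col19a1. Those of Col4a1 and Col18a1, 2 of 5, held under all 9, none of which takes a cluster alone. The part of endothelial RNA in these 2 differences was not tested. Without MMPlow 1 those of Col3a1 and Col19a1 were lost, without MMPlow 2 that of Col12a1, and without MMPhigh 1 those of Col3a1 and Col12a1. The epithelial-like Col3a1 level was at most 3.04 CPM above the erythroid-like level of the same library.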

How the results depend on the processing

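Calls per comparison moved with single libraries, for collagens and for all genes. Leaving out each library in turn gave 13 to 23 called collagens in all retained cells (7829 to 10824 of all genes), 9 to 19 in mesenchymal-like (959 to 2847), 2 to 7 in epithelial-like (549 to 1651), 4 to 10 in neural-like (678 to 3372) and 0 to 2 in endothelial-like cells (45 to 775). For the differences between classes it gave 2 to 7 (mesenchymal-like and epithelial-like, 415 to 1456 of all genes), 4 to 14 (mesenchymal-like and neural-like, 201 to 1732) and 3 to 8 (epithelial-like and neural-like, 378 to 1253). The fewest mesenchymal-like calls, 9, came without MMPlow 1. A filter of 10 CPM in 2 libraries gave 11 of the 19 collagens it left in all cells (5956 of 10473 genes), and no filter gave 1 of 44 in endothelial-like cells (462 of 24565 genes). DESeq2 gave 11 of 35 in mesenchymal-like (1133 of 13698 genes) and 1 of 13 in epithelial-like cells (427 of 8181), and for the differences between classes in the order above 2 of 26 (688 of 11447 genes), 4 of 28 (170 of 12012) and 3 of 28 (613 of 12012). Collagens among the clustering genes gave 3 and 6 of 38 for the 2 differences from mesenchymal-like cells (733 and 542 of 14708 genes), and cells with at least 5000 UMIs gave 11 of 32 in mesenchymal-like cells (1288 of 12274). The Pax9 sub-cluster alone gave 8 of 31 and the Prrx1 and Tbx15 sub-cluster 5 of 24 (1045 of 11829 and 1093 of 10208 genes), both with fewer cells. In the latter Col6a3 (-0.37), Col1a2 (-0.11) and Col4a6 (-0.61) reversed. Col4a6 also reversed in mesenchymal-like cells at resolution 0.5 (-0.25) and with doublets kept (-0.23). The mesenchymal-like fibrillar level moved to 1470 with at least 5000 UMIs, 1415 at resolution 0.5 and 1519 with doublets kept, and that of other collagens to 1113 and 1198 under the last settings. The neural-like fibrillar level moved to 249 with doublets kept. The cause was not tested. Of 17 mesenchymal-like calls 8 held under every setting that could be fitted, the sub-clusters aside, as did 4 of 6 neural-like and 1 of 4 epithelial-like calls. With at least 5000 UMIs the epithelial-like, endothelial-like and between-class fits could not be run, nor the epithelial-like and between-class fits at resolution 0.5. With the replicate number as a block the calls were 19, 18, 4, 7 and 0 in the order above (10852, 2574, 1234, 3115 and 211 of all genes), and it was not fitted for the differences between classes; same-numbered libraries deviated together with r = 0.116 over genes in all cells and 0.00103 in mesenchymal-like cells, 2 pairs that the labels do not tie to a shared origin.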
